A study of Canis lupus familiaris with 30 samples.

Results

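The receptor tyrosine kinases of blood cell progenitors and vessels were followed in canine lymphoma, before and during chemotherapy. The list held 8 genes, chosen by symbol: KIT, FLT3, PDGFRA, PDGFRB, KDR, FLT4, FLT1 and TEK. A gene was followed where the study's supplementary tables paired its symbol with an Ensembl gene ID of CanFam3.1, which was so for KIT, FLT3, PDGFRB, KDR and FLT4, that is 5 of 8 genes among 32704 gene IDs. FLT1, PDGFRA and TEK had no ID in the sources used here and were not analysed here.

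These receptors span the cell membrane and carry a kinase inside the cell that is switched on when a ligand pairs 2 receptor chains. KIT is the receptor for stem cell factor and marks haematopoietic progenitors and mast cells. FLT3 serves early progenitors and dendritic cells, and PDGFRB marks pericytes and fibroblasts. KDR and FLT4 bind vascular endothelial growth factors and are used mainly by blood and lymphatic endothelium. In a lymph node such transcripts can come from vessels, stroma, myeloid cells or the tumour itself.

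Enlarged lymph nodes of 15 dogs (Canis lupus familiaris) with lymphoma were sampled by fine needle aspiration, and each dog gave 1 six-week library and 1 initial library. The six-week libraries were taken 6 weeks into CHOP (cyclophosphamide, doxorubicin, vincristine and prednisone), and the initial ones before it, when a single injection of prednisone was the only treatment allowed. The immunophenotype label was T-Cell for 3 dogs, B-Cell for 7 and Unknown for 5. Breed, sex and age were not restricted, no healthy or untreated dogs were included, and the aspirates were not sorted. A change over time in these dogs could not be set against dogs without CHOP, and in bulk RNA fewer cells of a type and less RNA per cell cannot be told apart.

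Expression was measured as FPKM, the fragments scaled by transcript length and sequencing depth, together with read counts per gene. Total counts were 4318394 to 43413353 per library. In 18 libraries of 9 dogs the counts followed the FPKM of the same gene ID (Spearman correlation 0.880 to 0.983). In the 12 libraries of dogs 024, 027, 028, 029, 030 and 035 they did not (0.0868 to 0.117), so FPKM was used for all dogs and counts only for the other 9. At the initial timepoint the summed FPKM of the 5 measured T cell markers (CD3E, CD3D, CD5, CD28 and TRAT1, of 8 listed) was 630 and 529 in dogs 036 and 028, both labelled T-Cell. It was 29.4 in dog 038, also labelled T-Cell, where the B cell factor PAX5 had 62.8 FPKM. It was 342 in dog 029, labelled B-Cell, with 17.7 FPKM of PAX5. The T cell markers of both dogs thus went against their labels, while PAX5 did so in dog 038 only, and comparisons by label are also given without them.

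All 5 receptors were low to moderate in these aspirates, and FLT3 was the most abundant. Over all 30 libraries FLT3 averaged 3.47 FPKM, KDR 1.85, FLT4 0.970, KIT 0.898 and PDGFRB 0.701. FLT3 was the highest of the 5 in 23 libraries and the lowest in none, whereas FLT4 was the lowest in 16 libraries. KDR was highest in 4 libraries, FLT4 in 2 and PDGFRB in 1.

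**Figure D1:**
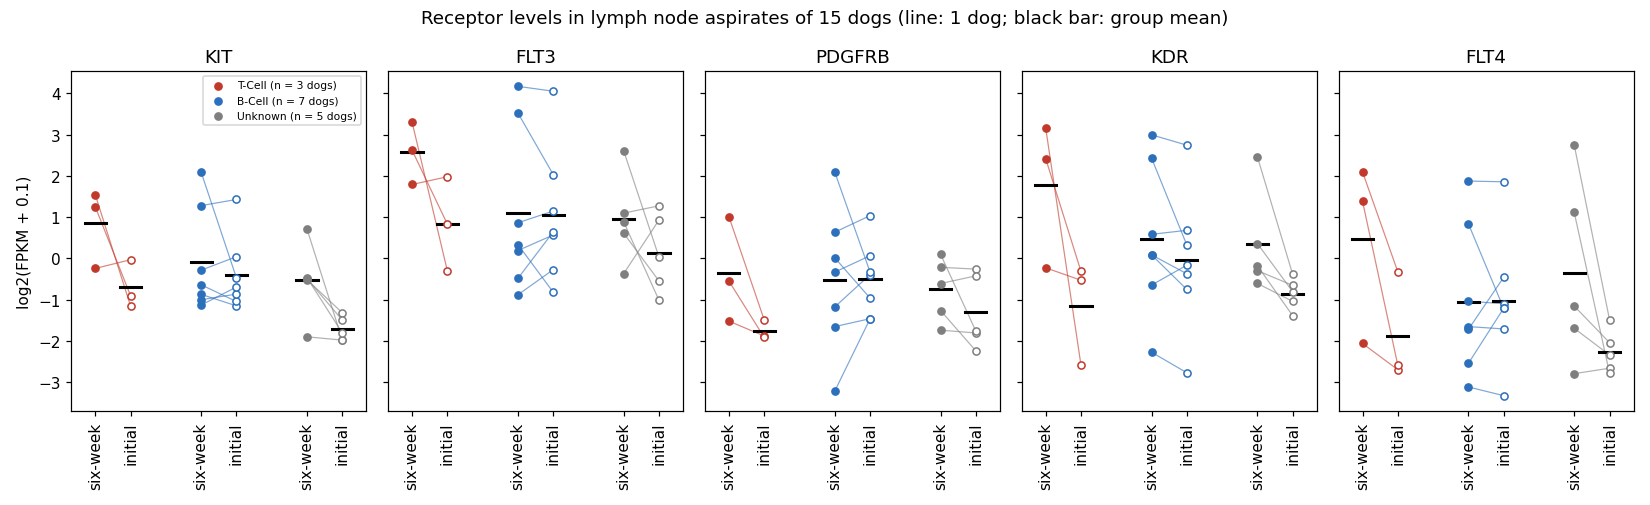
Levels of the 5 receptors as log2(FPKM + 0.1) in 15 dogs, with six-week libraries as filled points, initial libraries as open points, a line for each dog and black bars for group means. Most dogs stay low, and a few six-week libraries and both libraries of 1 B-Cell dog (029) stand high.

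A small set of libraries held the high values. For KIT, FLT3 and KDR the same 6 libraries ranked highest of 30: the six-week libraries of dogs 025, 034, 036 and 038, and the six-week and initial libraries of dog 029. For KDR these 6 had 5.24 to 8.83 FPKM and the next library had 1.51. For KIT they had 1.54 to 4.17 FPKM and the next had 0.930, and for FLT3 5.97 to 17.9 FPKM, followed by 3.99. The gap was therefore widest for KDR. For FLT4 and for PDGFRB, 5 of the 6 highest libraries were among them. Of 28603 genes with a mean above 0.1 FPKM, 276 (0.965%) had exactly these 6 libraries highest, and 1667 (5.83%) had at least 5 of them.

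Depth and markers of other cells moved with these libraries. The 6 were among the 7 shallowest, with total counts of 4318394 to 11646028, and the other 24 had 6778831 to 43413353. The FPKM of all genes also summed unequally, to 769269 to 2.25e+06 per library. At week 6 this sum was 1.54e+06 in dog 036 and 1.41e+06 in dog 025, but 936249 in dog 034. The ranks were not scaled for it, and the order of libraries on a common sum was not tested. The same 6 also ranked highest for the summed FPKM of the 5 measured macrophage markers (CSF1R, MRC1, ADGRE1, C1QA and C1QB, of 9 listed), at 312 in the six-week library of dog 038, 174 in that of dog 025 and 157 in that of dog 034. The sum was 89.0 in the six-week library of dog 036, and in dog 029 it was 87.5 at week 6 and 100.3 initially. The next library, the initial one of dog 038, was close at 78.9, and ADGRE1 and C1QB alone shared 4 of the 6. Of the other marker sums, those of fibroblasts and progenitors shared 5 of the 6, and that of mast cells 4. Those of endothelial, dendritic and T cells and of neutrophils shared 3, platelets 2 and B cells 0. PAX5 was 7.20 to 17.7 FPKM in the 6, while 19 of the other 24 libraries were above 17.7. T cell marker sums in the 6 ran between 77.5 in the six-week library of dog 038 and 427 in that of dog 029. The part of depth and of these cells in the receptor levels was not tested.

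Between the timepoints, KDR was the 1 receptor of 5 that passed the test across all 15 dogs, and only just. It was higher at week 6 by 1.22 on the log2 scale (limma on log2(FPKM + 0.1) with the dog as a block, SE 0.379, adjusted p = 0.04998). In the same test 9.27% of 28603 genes were called, 9.16% higher and 0.112% lower, and the median of all genes was higher by 0.26. An unadjusted p below 0.05 was reached by 29.3% of genes. Quantile normalization moved the median of all genes to -0.01, and the differences were then 0.74 for KDR, 0.61 for FLT4, 0.41 for FLT3, 0.28 for KIT and -0.15 for PDGFRB. With a pseudocount of 1 they were 0.71, 0.55, 0.48, 0.42 and 0.24 in the same order. The 5 receptors had a median of 0.85, and relative to the median of all genes KDR was higher by 0.96. The KDR call was lost in 22 of 24 alternatives, with adjusted p between 0.0501 and 0.556, and was kept without dog 033 or without dog 036. All 5 gene IDs came from a supplementary list of genes ranked by their change over time in 1 of the study's groups of dogs, and that of KDR also stands in the list of the other group. The tables do not name the dogs, and the first group was taken to be the 9 dogs whose counts follow FPKM. Those 9 dogs are among the 15, so the changes in both sets are descriptions and no independent evidence. This includes the KDR call and the median of the 5 receptors.

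KIT had 0.168 to 4.17 FPKM (median 0.626) in the 15 six-week libraries, against 0.154 to 2.59 FPKM (median 0.386) in the 15 initial libraries. The ranges overlapped almost wholly, and 10 of 15 dogs were higher at week 6. The difference was 0.85 on the log2 scale (limma, SE 0.296, adjusted p = 0.0696), or 0.59 above the median of all genes. The shift was carried by dogs 036, 025, 034 and 038, whose KIT was higher by 2.70, 2.68, 2.56 and 2.15 on the log2 scale. In the other 11 dogs it moved between -0.44 in dog 037 and 1.34 in dog 026. In the six-week library of dog 034 281 KIT reads were counted, against 67 in its deeper initial library.

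By label, KIT averaged 1.95 ± 1.08 FPKM at week 6 and 0.555 ± 0.284 FPKM initially in T-Cell dogs (SD, n = 3). It averaged 1.28 ± 1.45 FPKM at week 6 and 0.836 ± 0.799 FPKM initially in B-Cell dogs (n = 7), and 0.710 ± 0.503 FPKM at week 6 and 0.211 ± 0.0656 FPKM initially in Unknown dogs (n = 5). The initial Unknown libraries were the lowest group, at 0.154 to 0.302 FPKM, below every initial T-Cell library (0.351 to 0.880 FPKM) and every initial B-Cell library (0.352 to 2.59 FPKM). Such a separation in the same direction was found for 0.0526% of 26610 genes, and it was picked out for KIT after its values were seen, with no test. All other neighbours in the order of these means differed by less than the larger of their SDs. KIT was higher at week 6 in 5 of 5 Unknown dogs, in 2 of 3 T-Cell dogs and in 3 of 7 B-Cell dogs.

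FLT3, whose ligand drives early progenitors and dendritic cells, had 0.444 to 17.9 FPKM (median 1.74) in six-week libraries, against 0.395 to 16.5 FPKM (median 1.46) in initial libraries. Both maxima belonged to dog 029, and the ranges overlapped. It was higher at week 6 in 8 of 15 dogs, and the difference of 0.65 on the log2 scale did not pass (limma, SE 0.339, adjusted p = 0.211). Dog 038 had the largest change, with 9.77 FPKM at week 6 against 0.713 FPKM initially, and dog 024 the most negative, with 0.677 FPKM at week 6 against 1.81 FPKM initially. FLT3 averaged 6.40 ± 3.22 FPKM at week 6 and 2.08 ± 1.60 FPKM initially in T-Cell dogs (SD, n = 3). It averaged 4.90 ± 6.93 FPKM at week 6 and 3.80 ± 5.70 FPKM initially in B-Cell dogs (n = 7), and 2.37 ± 2.07 FPKM at week 6 and 1.21 ± 0.827 FPKM initially in Unknown dogs (n = 5). No neighbours in the order of means differed by more than the larger of their SDs.

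PDGFRB, the receptor of platelet-derived growth factor B on pericytes and fibroblasts, had 0.00779 to 4.17 FPKM (median 0.585) at week 6, against 0.112 to 1.95 FPKM (median 0.264) initially. The lowest value, in the six-week library of dog 003, rested on 2 reads. PDGFRB was higher at week 6 in 9 of 15 dogs and changed the least of the 5, by 0.46 on the log2 scale (limma, SE 0.308, adjusted p = 0.339). With quantile normalization its direction turned. The largest changes were 2.50 on the log2 scale in dog 038 and 2.42 in dog 034, and dog 003 had the most negative, -1.75. PDGFRB averaged 0.918 ± 0.884 FPKM at week 6 and 0.198 ± 0.0511 FPKM initially in T-Cell dogs (SD, n = 3). It averaged 1.11 ± 1.43 FPKM at week 6 and 0.743 ± 0.589 FPKM initially in B-Cell dogs (n = 7), and 0.562 ± 0.316 FPKM at week 6 and 0.376 ± 0.292 FPKM initially in Unknown dogs (n = 5). Neighbours in the order of means were again within the larger SD.

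KDR, the main receptor for vascular endothelial growth factor A on blood vessels, had 0.107 to 8.83 FPKM (median 0.963) at week 6, against 0.0468 to 6.60 FPKM (median 0.594) initially. It was higher at week 6 in 13 of 15 dogs and lower in dogs 030 and 033. Dog 036 moved most, with 8.83 FPKM on 356 reads at week 6 against 0.0667 FPKM on 8 reads initially. Without this dog the difference over the others was 0.90 on the log2 scale (limma, adjusted p = 0.0454). The next changes were 2.85 on the log2 scale in dog 025, 2.73 in dog 038 and 2.11 in dog 034. KDR averaged 4.94 ± 4.05 FPKM at week 6 and 0.455 ± 0.341 FPKM initially in T-Cell dogs (SD, n = 3). It averaged 2.45 ± 2.95 FPKM at week 6 and 1.61 ± 2.25 FPKM initially in B-Cell dogs (n = 7), and 1.73 ± 2.07 FPKM at week 6 and 0.469 ± 0.146 FPKM initially in Unknown dogs (n = 5). The SDs again exceeded the steps between neighbouring groups.

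FLT4, the receptor for vascular endothelial growth factors C and D on lymphatic vessels, had 0.0157 to 6.61 FPKM (median 0.350) at week 6, against 0 to 3.52 FPKM (median 0.207) initially. The value of 0 was that of dog 003, with a count of 0 that allows up to 3 reads among 24096548. FLT4 was higher at week 6 in 12 of 15 dogs, and the difference was 1.09 on the log2 scale (limma, SE 0.436, adjusted p = 0.106). Here dog 031_032 was also among the largest changes, with 2.07 FPKM on 139 reads at week 6, against 0.0464 FPKM on 4 reads initially. Dog 025 changed most, by 4.23 on the log2 scale. FLT4 averaged 2.28 ± 2.03 FPKM at week 6 and 0.274 ± 0.369 FPKM initially in T-Cell dogs (SD, n = 3). It averaged 0.880 ± 1.32 FPKM at week 6 and 0.770 ± 1.23 FPKM initially in B-Cell dogs (n = 7), and 1.86 ± 2.78 FPKM at week 6 and 0.121 ± 0.0858 FPKM initially in Unknown dogs (n = 5). The steps between neighbouring groups were smaller than the larger SD.

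Within dogs the 5 receptors had 1 common direction in 6 of 15 dogs and mixed directions in 9, of which dogs 027, 028, 029, 035 and 037, 5 in number, split 3 to 2. All 5 were higher at week 6 in dogs 025, 031_032, 034, 036 and 038, with median changes of 2.68, 1.16, 2.11, 2.70 and 2.50 on the log2 scale. All 5 were lower in dog 033, with a median change of -0.61, and 4 of 5 were lower in dog 030. In dog 029, which stood high at both timepoints, the changes lay between -0.40 and 0.25. Across the 30 libraries, which include 2 per dog and differ in depth, the pairwise Pearson correlation of log2(FPKM + 0.1) was highest between KDR and FLT4 at 0.868 and lowest between FLT3 and PDGFRB at 0.625. In the UU_Cfam_GSD_1.0 assembly KIT and KDR lie next to each other with no protein-coding gene between them, and their correlation was 0.842. It was higher, at 0.853, between KIT and FLT3, which are not neighbours, as KDR and FLT4 are not.

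**Figure D2:**
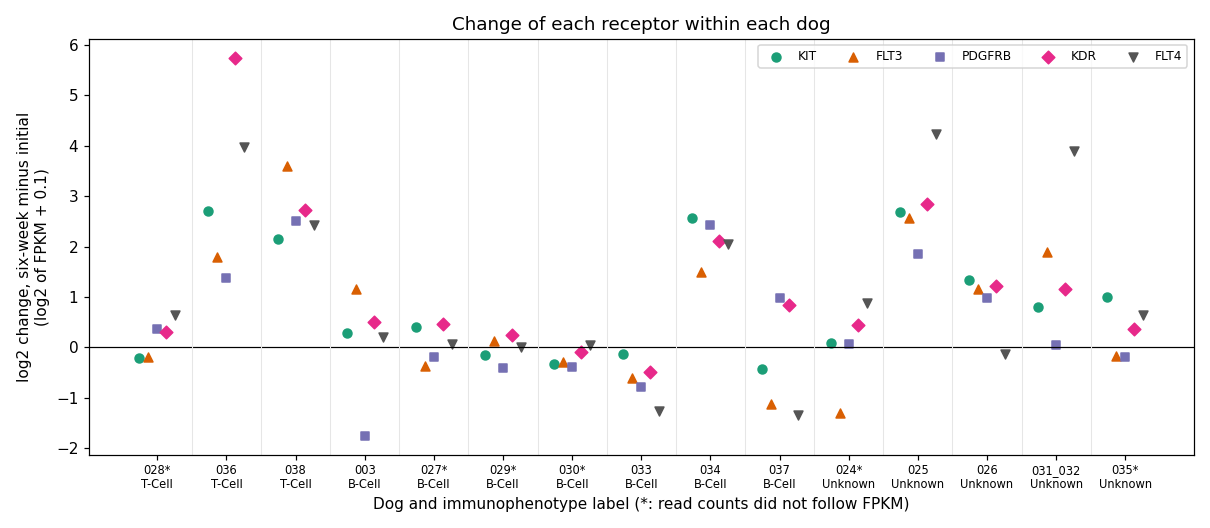
Change of each receptor within each dog, as the six-week minus the initial log2(FPKM + 0.1), with 1 symbol per receptor and dogs ordered by immunophenotype label. All 5 symbols lie above 0 in dogs 025, 031_032, 034, 036 and 038, and all 5 below 0 in dog 033.

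The 5 dogs in which all receptors were higher were among the 9 whose counts follow FPKM. In these 9 dogs FPKM was higher at week 6 by 1.33 for KIT, 1.33 for FLT3, 0.85 for PDGFRB, 1.85 for KDR and 1.56 for FLT4 on the log2 scale, and none passed (limma, adjusted p between 0.114 and 0.253). No gene was called there, although 7635 of 28036 were at an unadjusted p under 0.05. In the 6 other dogs the differences were 0.13 for KIT, -0.37 for FLT3, -0.12 for PDGFRB, 0.28 for KDR and 0.38 for FLT4. None passed there (limma, unadjusted p between 0.0837 and 0.597), no gene was called, and 2832 of 28754 were at an unadjusted p under 0.05. KDR was higher in 5 of these 6 dogs and FLT4 in 6 of 6, by at most 0.46 and 0.89, where the KDR value is not free of the choice of IDs either. The median of all genes was higher by 0.14 in these 6 dogs, with 70.3% of genes higher, and by 0.34 in the 9 dogs. Relative to it KDR was higher by 0.14 and FLT4 by 0.24 in the 6 dogs, so both lay near the general shift. The 95% intervals in these 6 dogs reached to 0.69 for KIT, 0.06 for FLT3, 0.39 for PDGFRB, 0.66 for KDR and 0.96 for FLT4. A test of the difference between both sets of dogs was not run.

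**Figure D3:**
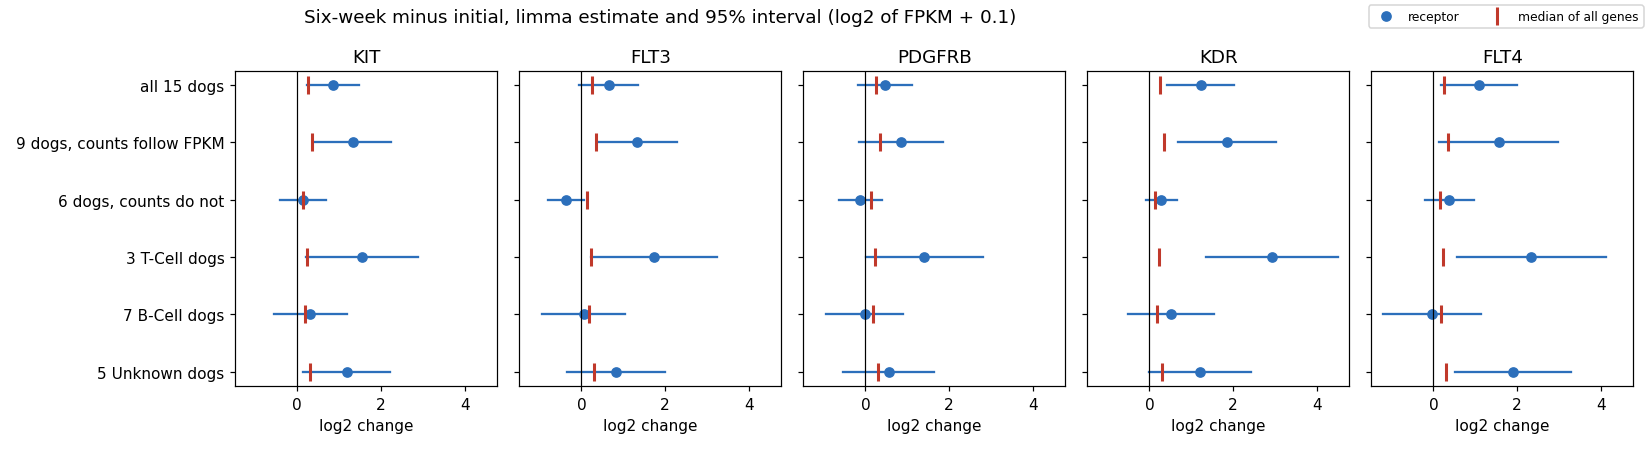
Six-week minus initial difference of each receptor on the log2(FPKM + 0.1) scale, as the limma estimate with its 95% interval, in all dogs and in subsets, with the median of all genes as a red mark. KDR lies at 2.92 in the T-Cell dogs and 1.85 in the 9 dogs whose counts follow FPKM, against 0.28 in the 6 other dogs and 0.51 in the B-Cell dogs. The subsets by label and by counts share dogs. The IDs came from a list ranked by change over time, taken to be that of the 9 dogs, so these contrasts are descriptions.

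Read counts were also tested between the timepoints in the 9 dogs. They held 43 to 281 reads of KIT at week 6 against 18 to 138 initially, and 23 to 533 reads of KDR at week 6 against 8 to 196 initially. With edgeR's quasi-likelihood test, KIT was higher by 1.46, FLT3 by 1.36, PDGFRB by 0.94, KDR by 1.87 and FLT4 by 2.17 on the log2 scale. None of the 5 passed (adjusted p between 0.0909 and 0.341), and edgeR called 0 of 16269 genes, with an unadjusted p below 0.05 for 4137 of them. DESeq2 called KIT (adjusted p = 0.00326), FLT3 (0.00890), KDR (0.00311) and FLT4 (0.0103) higher and not PDGFRB (0.161), beside 16.7% of all genes called and 14.1% called higher. The call thus depended on the tool, and the choice of IDs used the same contrast.

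The second question was whether the receptors differed by immunophenotype. At the initial timepoint none of the 5 passed between T-Cell and B-Cell dogs (limma, adjusted p between 0.338 and 0.916), where 0.169% of 26610 genes were called. PDGFRB came closest, with 0.166, 0.172 and 0.257 FPKM in the 3 T-Cell libraries, against 0.263 to 1.95 FPKM (median 0.662) in the 7 B-Cell libraries. The groups did not overlap, by a margin of 0.257 against 0.263, which held in the same direction for 1.9% of genes. The difference was -1.26 on the log2 scale (95% interval -2.54 to 0.03). KDR differed by -1.10 (-2.87 to 0.67), FLT4 by -0.85 (-2.60 to 0.91), KIT by -0.30 (-1.47 to 0.86) and FLT3 by -0.21 (-1.99 to 1.56), and their groups overlapped. Without dogs 029 and 038 the differences were -1.14 for PDGFRB, -1.05 for KDR, -1.14 for FLT4, 0.85 for FLT3 and 0.10 for KIT, none of which passed (limma, adjusted p between 0.330 and 0.925), so that the direction of FLT3 and KIT rested on these dogs.

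At week 6 the sign was the other way, with FLT4 at 1.52 (95% interval -1.09 to 4.14), FLT3 at 1.47 (-0.50 to 3.44), KDR at 1.32 (-0.78 to 3.41), KIT at 0.93 (-0.68 to 2.54) and PDGFRB at 0.17 (-1.76 to 2.1) in T-Cell against B-Cell dogs. None passed (limma, adjusted p between 0.859 and 0.975). The test called 0 of 29350 genes, 1856 of them with an unadjusted p below 0.05, and all 5 receptors overlapped between the labels. Without dogs 029 and 038 the differences were 1.20 for FLT4, 1.61 for FLT3, 1.42 for KDR, 0.96 for KIT and -0.32 for PDGFRB, and again none passed (limma, adjusted p between 0.693 and 0.934).

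The change over time was then taken within each label. In T-Cell dogs KDR was higher at week 6 by 2.92 on the log2 scale (limma, adjusted p = 0.0574), FLT4 by 2.34 (0.109), FLT3 by 1.73 (0.149), KIT by 1.55 (0.147) and PDGFRB by 1.41 (0.199). All 5 were at an unadjusted p under 0.05 and none passed, where 24.7% of 28603 genes were at such a p and 1.03% were called. Dogs 036 and 038 carried it, and without dog 028, which changed by -0.21 to 0.64, KDR (4.24, adjusted p = 0.00698), FLT4 (3.19, 0.0414), FLT3 (2.70, 0.0349) and KIT (2.43, 0.0305) passed. Dogs 036 and 038 are among the 9 dogs taken as the group behind the IDs, so these calls are no independent evidence. The T cell markers and PAX5 of dog 038 also went against its label. The number of all genes called moved widely with the T-Cell dog left out, and only its range is given below. Without the share of all genes in that fit, these calls are no result about the receptors in particular. Without dog 036 no gene was called, and KDR was at 1.52, FLT4 at 1.53, FLT3 at 1.71, KIT at 0.97 and PDGFRB at 1.43 (limma, adjusted p between 0.415 and 0.569). Without dog 038 none of the 5 passed, with KDR at 3.02, FLT4 at 2.30, KIT at 1.24, PDGFRB at 0.86 and FLT3 at 0.80 (limma, adjusted p between 0.147 and 0.605). In B-Cell dogs KDR differed by 0.51, KIT by 0.31, FLT3 by 0.05, PDGFRB by -0.02 and FLT4 by -0.03. No gene was called in them, with 2057 at an unadjusted p under 0.05. Without dog 029 these values were 0.55 for KDR, 0.39 for KIT, 0.042 for FLT3, 0.045 for PDGFRB and -0.037 for FLT4. In Unknown dogs FLT4 differed by 1.90, KDR by 1.20, KIT by 1.18, FLT3 by 0.83 and PDGFRB by 0.55, and again no gene was called, with 4360 at an unadjusted p under 0.05. Without dog 025 they were 1.32 for FLT4, 0.79 for KDR, 0.81 for KIT, 0.39 for FLT3 and 0.23 for PDGFRB.

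The difference in change between T-Cell and B-Cell dogs was tested as an interaction. It was 2.41 for KDR, 2.37 for FLT4, 1.68 for FLT3, 1.43 for PDGFRB and 1.23 for KIT, and none passed (limma, adjusted p between 0.295 and 0.467), where 0.0175% of genes were called. Without dog 028 the KDR value was 3.73 and passed (adjusted p = 0.0403), and without dog 036 it was 1.005 and did not (adjusted p = 0.881). Here too the number of all genes called moved with the T-Cell dog left out, with its range given below. The KDR call is thus no result about KDR in particular. Without dogs 029 and 038 the difference in change was 2.47 for KDR, 2.34 for FLT4, 0.76 for FLT3, 0.82 for PDGFRB and 0.85 for KIT, with none of the 5 past the threshold (adjusted p between 0.402 and 0.749).

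Ligands and partner receptors were measured in part. Of 15 listed ligands 4 had an ID: VEGFC, a ligand of FLT4, PGF, a ligand of FLT1, and PDGFB and PDGFD, both ligands of PDGFRB. Across all dogs 0 of 4 passed between the timepoints (limma, 2 at an unadjusted p under 0.05). PDGFB differed by 0.84 on the log2 scale (adjusted p = 0.0543), VEGFC by 0.54, PDGFD by 0.53 and PGF by -0.36. Of 6 sister and partner receptors 4 had an ID and none passed (limma, 0 at an unadjusted p under 0.05). CSF1R, the macrophage receptor that lies next to PDGFRB, differed by 0.26, and the VEGF co-receptors NRP1 and NRP2 by 0.51 and 0.41. PTPRB, a phosphatase known from endothelium, differed by 0.64. It was highest in the initial library of dog 036 (32.1 FPKM), then at week 6 and initially in dog 028 (14.1 and 13.9 FPKM). Both dogs were labelled T-Cell, and the source of PTPRB was not tested. The IDs of the ligands and partner receptors came from the same shortened lists, ranked by p, as those of the 5 receptors.

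Genes whose pattern was most like each receptor were taken by the Pearson correlation of log2(FPKM + 0.1) over the 30 libraries, among genes with a symbol and a mean above 1 FPKM. For KDR they were MET, the receptor of hepatocyte growth factor (0.967), ROBO1, a receptor of Slit proteins (0.955), and FILIP1 (0.951). For FLT4 they were PLVAP, a protein of endothelial fenestrae (0.957), CD209, a lectin of dendritic cells and macrophages (0.939), and SHE (0.929). PDGFRB was nearest to VEGFC (0.932), the transporter SLCO2B1 (0.922) and the myosin light chain kinase MYLK (0.921). KIT was nearest to PEG3 (0.927), ZNF366 (0.910) and AMDHD1 (0.906), and FLT3 to the T cell kinase PRKCQ (0.876), the interleukin receptor IL7R (0.863) and STON1 (0.862). These values share the same libraries and the same high libraries, and are a description.

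Markers of vessels, stroma and progenitors were set beside the receptors. The 6 measured endothelial markers (PECAM1, CDH5, VWF, CLEC14A, MMRN2 and STAB2, of 14 listed) summed to 1.41 to 76.5 FPKM (median 35.7) at week 6, against 3.33 to 84.1 FPKM (median 15.0) initially. None of the 6 passed between the timepoints (limma, 3 at an unadjusted p under 0.05, median 0.58), while CDH5 was listed at 0 in 1 library, CLEC14A in 4 and MMRN2 in 8. The correlation of the endothelial sum with KDR was 0.656 and with FLT4 0.643. The highest endothelial sum, 84.1 FPKM in the initial library of dog 035, was 82.7 FPKM of PECAM1, which platelets and leukocytes also carry, and stood beside 0.537 FPKM of KDR and 0.0980 FPKM of FLT4. VWF and STAB2 were highest in the same 6 libraries as KDR, and CDH5 shared 5 of the 6. MMRN2 shared 4, PECAM1 and CLEC14A 2 each, and the endothelial sum 3, so the markers did not go together.

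The 2 measured progenitor markers (HLF and GATA2, of 7 listed) summed to 0.258 to 4.37 FPKM (median 1.11) at week 6, against 0.159 to 1.97 FPKM (median 0.493) initially, and their sum had a correlation of 0.869 with KIT and 0.810 with FLT3. GATA2, the 1 measured mast cell marker of 7, was listed at 0 in 2 libraries. COL1A1 and COL3A1, the 2 measured fibroblast markers of 11, summed to 0.181 to 13.2 FPKM (median 1.13) at week 6, against 0.0890 to 21.8 FPKM (median 0.966) initially. Their sum had a correlation of 0.838 with PDGFRB, and COL1A1 was listed at 0 in 2 libraries. The macrophage sum was 5.55 to 312 FPKM (median 31.6) at week 6, against 7.46 to 100.3 FPKM (median 26.1) initially, with no marker at 0, and had a correlation of 0.860 with FLT4 and 0.797 with KDR. The pairings were not specific: the fibroblast sum had correlations of 0.702 to 0.838 with all 5 receptors, and KDR had 0.820 with GATA2, 0.790 with the progenitor sum and 0.716 with the fibroblast sum. These are correlations over 30 libraries of 15 dogs, and the part of each cell type in the receptor changes was not tested.

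**Figure D4:**
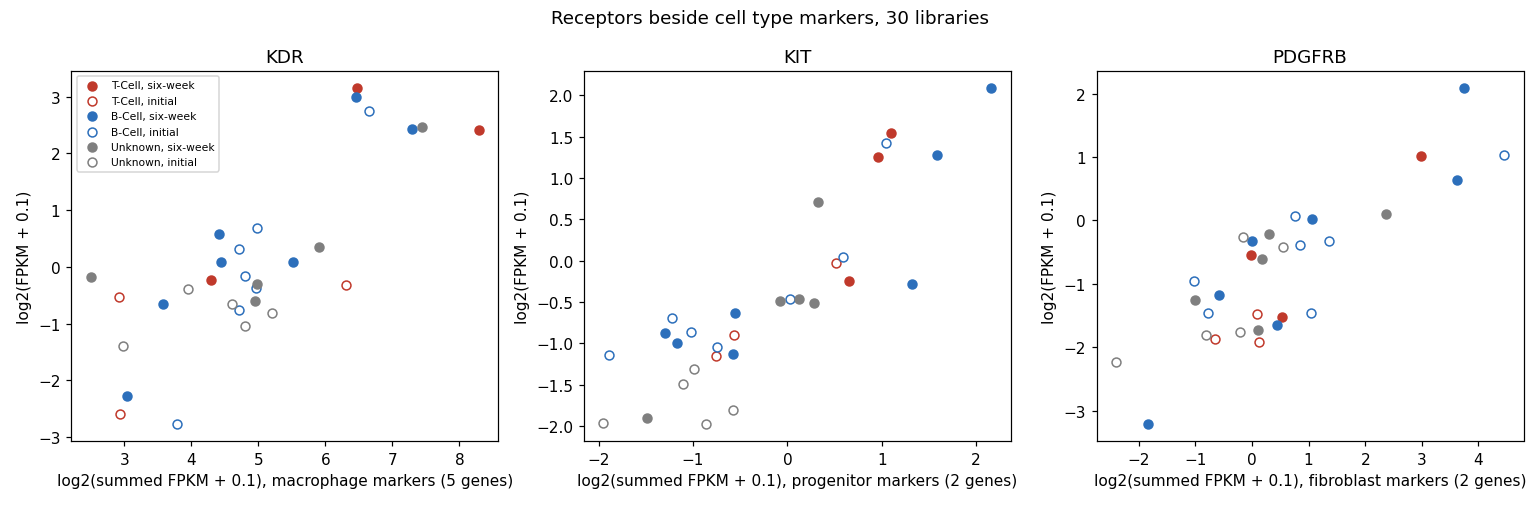
KDR, KIT and PDGFRB, each as log2(FPKM + 0.1), against the log2 summed FPKM of macrophage, progenitor and fibroblast markers in 30 libraries, with six-week libraries filled and initial libraries open. For KDR 6 libraries, 1 of them initial (dog 029), stand apart at the upper right.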

How the data were processed

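RNA of aspirates of 15 dogs was sequenced at 2 timepoints. Per the submitters' processing notes, reads were handled with HISAT2 2.1.0 and StringTie 1.3.3 on CanFam3.1. FPKM, as the authors deposited it, corrects a gene's signal for transcript length and library depth. The read counts deposited by the authors are whole numbers, not scaled. Authors' tables of fold changes were used only to pair symbols with IDs (5084 IDs), and none of their values was used. These tables are shortened and ranked by p. The members and lists were chosen with earlier results of these data known.

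FPKM was tested as log2(FPKM + 0.1) with limma 3.58.1 in R 4.3.3, for genes with a mean above 0.1 FPKM, over all genes at a Benjamini-Hochberg adjusted p under 0.05, and with dogs as blocks wherever timepoints were compared. The fold change of low genes is understated on this scale. Counts of 9 dogs, where the Spearman correlation of counts with FPKM was above 0.5, were tested with edgeR 4.0.16 (quasi-likelihood) and DESeq2 1.42.0. Python 3.11.15 with pandas 2.3.3 and matplotlib 3.10.9 was used for levels and figures.

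The number in a library's name gave its dog, except that the libraries of dog 031_032 carry different numbers and were joined by elimination. Deviations from the timepoint mean had a median correlation of 0.328 within dogs (0.146 in dog 031_032), above 0.1 in 13 of 15 and -0.021 at the lowest. The six-week library correlated best with the initial library of its own dog in 10 of 15 dogs. Each dog gave 1 library per timepoint, so that p-values measure the spread between dogs. No pair of libraries of a group was a copy (lowest chi-square per degree of freedom 38.3). On simulated data, the test between timepoints in all dogs recovered 34% of 2-fold and 79% of 4-fold changes, that between labels 3% and 26% initially and 0% and 18% at week 6, and the interaction 0% and 18%. On counts edgeR recovered 20% and 66% and DESeq2 46% and 86%, and they called 3 and 38 unchanged genes. Noise was drawn independently for each gene and library, so differences shared by many genes of a library were not simulated. The changed genes were drawn from all genes tested, and the rates are not those of the receptors. Total counts had a median of 16327922 per library. Limits from a count of 0 cover counting error only. Genes named were the members, listed genes by count and by lowest p among those that passed, and the 3 genes most like each member. Alternatives were a pseudocount of 1, a filter above 1 FPKM or none, the TPM scale, quantile normalization, no block, DESeq2 and leaving out dogs. Leaving out each dog in turn over all dogs, and dogs 029 and 038 together (the interaction included), was added after seeing the data.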

Additional observations from a re-analysis of the deposited data

Results flagged for a closer look

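1 value of 30 groups of 5 or 7 samples stood far from the rest of its group, where chance gives about 1 in 20 groups. Among the 7 B-Cell dogs the change of KIT in dog 034 was 2.56 on the log2 scale, six-week minus initial, and the next highest change was 0.40. The gap to the nearest dog was 0.719 of the group's whole range.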

How the results depend on the processing

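Over all dogs, the 2651 genes called between the timepoints became 1336 on the TPM scale and 0 with a filter above 1 FPKM, with quantile normalization, without dog 031_032, without dogs 029 and 038, in the 9 dogs alone and in the 6 dogs alone. Leaving out 1 dog at a time gave 0 to 3023, with 0 without dogs 025, 026, 030, 031_032, 034, 035 or 038 and 547 without dog 037. With edgeR on counts 0 became 2719 with DESeq2, 1 with no filter on low counts, and 0 without any single dog. Without the replicate block, that is without pairing libraries by dog, 0 genes were called in all dogs, 0 in T-Cell dogs and 0 in the interaction, and KDR had an adjusted p of 0.267. Between labels, initially, 45 calls became 24 with a pseudocount of 1, 643 without dog 029, 3124 without dogs 029 and 038, and 0 to 2189 without 1 T-Cell dog. At week 6 the 0 calls became 1 without dog 029, 23 without dogs 029 and 038, and 0 to 14 without 1 T-Cell dog. In T-Cell dogs 294 calls became 0 with a pseudocount of 1, 13 with a filter above 1 FPKM, 31 with no filter, 17 on the TPM scale, 2 with quantile normalization, and 0 to 4483 without 1 dog. In Unknown dogs leaving out 1 dog gave 0 to 1. The interaction's 5 calls became 0 with a pseudocount of 1, 3 with quantile normalization, 0 without dog 029, and 0 to 432 without 1 T-Cell dog.

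Of the receptors, 20 values turned sign and the cause was not tested. Over all dogs these were PDGFRB with quantile normalization (-0.15), and FLT3 (-0.37) and PDGFRB (-0.12) in the 6 dogs alone. Between labels, initially, KIT turned with quantile normalization (0.043), without dog 029 (0.00080) and without dogs 029 and 038 (0.10), and FLT3 without dog 029 (0.29) and without both (0.85). Without 1 T-Cell dog FLT3 lay between -0.78 and 0.36. At week 6 PDGFRB turned with a pseudocount of 1 (-0.025), quantile normalization (-0.093) and without dogs 029 and 038 (-0.32), and without 1 T-Cell dog it lay between -0.51 and 0.75. In B-Cell dogs FLT4 (0.048) and PDGFRB (0.13) turned with a pseudocount of 1, FLT3 on the TPM scale (-0.0014), KIT (-0.047) and FLT3 (-0.26) with quantile normalization, and PDGFRB without dog 029 (0.045). In Unknown dogs PDGFRB turned with quantile normalization (-0.33). The other 460 receptor values under alternatives kept their direction. Depth limits FLT4 and PDGFRB most, which had as few as 0 and 2 reads in a library.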

Other observations

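Of 43 other receptor tyrosine kinases listed, 14 had an ID and 13 were tested between the timepoints in all dogs. EPHA5, a receptor of ephrins, was the 1 that passed (limma, 1.05 on the log2 scale, adjusted p = 0.0389). It was listed at 0 in 3 libraries, with a median of 0.284 FPKM. In the same test 9.27% of all genes were called, so 1 call in 13 is near the share of all genes. MET, the gene most like KDR, differed by 0.79 (limma, adjusted p = 0.0870), and the median of the 13 was 0.51, beside 0.26 for all genes. All IDs came from the shortened lists ranked by p, which favour genes that change, so the higher median is no independent evidence. On the counts of the 9 dogs DESeq2 called 5 of 12 higher, with a median of 1.21, and edgeR called no gene. DESeq2 called 14.1% of all genes higher, and the choice of IDs bears on the 5 of 12 as well. Of 6 measured adaptors and enzymes downstream of the receptors none passed (limma, 2 at an unadjusted p under 0.05), with a median of 0.07. Of 5 measured negative regulators SPRED1, an inhibitor of the Ras pathway, passed at 0.90 (limma, adjusted p = 0.0402), and the phosphatases PTPN6 and DUSP6 differed by -0.17 and 0.26. The call of SPRED1 likewise stands beside 9.27% of all genes called.

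Of 5 measured macrophage genes MRC1 (limma, 1.42 on the log2 scale, adjusted p = 0.0421) and ADGRE1 (1.0, 0.0470) passed between the timepoints, while CSF1R differed by 0.26. The progenitor factor HLF (0.84, 0.0370) and the platelet chemokine PPBP (0.94, 0.0497) passed too, each 1 of 2 measured. In the same test 9.16% of all genes were called higher, and none with quantile normalization or a filter above 1 FPKM. The IDs of these markers came from the same shortened lists, ranked by p. None of 3 neutrophil genes passed (2 at an unadjusted p under 0.05, median 0.94), none of 5 T cell genes (3, median 1.0), none of 2 dendritic cell genes (0, median 0.71) and not PAX5 (-0.25).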
